A study of Mus musculus with 20 samples.

Results

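Imprinted genes were followed across the hearts of mice that lack the DNA methyltransferases Dnmt3a and Dnmt3b in cardiomyocytes. The set comprised 40 genes on a fixed list of mouse imprinted genes, and every bead-chip probe annotated with a listed symbol, or with an older name of it, was taken. This gave 97 of the 45281 probes on the array, for 37 of the 40 genes, by annotation alone, from a list drawn up with earlier results of these data known. A single probe, for Plagl1, matched by an older name. H19, Snrpn and Zrsr1 are not analysed here, since no probe carried their names. The number of probes per gene ran from 1, for 14 genes, to 9 for H13 and 10 for Gnas.

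Ventricular RNA was measured in 4 groups of male mice, with 1 array per mouse. They were 6 DKO hearts and 6 CTL hearts after transverse aortic constriction (TAC, which loads the left ventricle with pressure), and 4 DKO hearts and 4 CTL hearts after sham surgery. All mice of both genotypes carried homozygous floxed alleles of Dnmt3a and Dnmt3b. DKO mice also carried Cre recombinase driven by the atrial myosin light chain promoter (MLC2a-Cre), which removes an exon of the catalytic domain from each gene in cardiomyocytes, and CTL mice had no Cre. Surgery was at 10 to 12 weeks of age and the ventricles were taken 4 weeks later, at 14 to 16 weeks. By design the other cells of the ventricle kept both genes, and RNA was taken from whole left ventricular tissue. The paper measured recombination of each gene in most, but not all, of the sorted cardiomyocyte nuclei.

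An imprinted gene is transcribed mainly from the copy inherited from the mother or mainly from that inherited from the father. The choice is set by DNA methylation that is laid down at imprinting control regions in the egg or sperm, by Dnmt3a with its partner Dnmt3l in most cases, and is then copied at each cell division by Dnmt1. Many of the genes encode regulators of fetal growth whose transcription falls after birth, and others act in metabolism or in neurons. By design the floxed exons of DKO mice are removed in cardiomyocytes, long after the imprints of the germ line had been set. Several of the listed genes, Nap1l5, Mcts2, Nnat and Zrsr1 among them, are short genes that lie inside a longer host gene. In the RefSeq gene models of GRCm38.p6, Nap1l5 lies inside Herc3, Mcts2 inside H13, Nnat inside Blcap and Zrsr1 inside Commd1.

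The promoters of Nap1l5 and of its host Herc3 are shown because Nap1l5 was called between genotypes and its host was not, and those of Nnat and Mcts2 as 2 more imprinted genes of the same arrangement. Each window is read on the gene's own strand and runs from 250 bases before to 50 bases after the RefSeq start. Capitals mark CG, the dinucleotide on which the deleted enzymes act. The windows lie at chr6:58907077-58907376 on the minus strand for Nap1l5, chr6:58833450-58833749 on the plus strand for Herc3, chr2:157559828-157560127 on the plus strand for Nnat and chr2:152686898-152687197 on the plus strand for Mcts2 (GRCm38.p6).
Nap1l5: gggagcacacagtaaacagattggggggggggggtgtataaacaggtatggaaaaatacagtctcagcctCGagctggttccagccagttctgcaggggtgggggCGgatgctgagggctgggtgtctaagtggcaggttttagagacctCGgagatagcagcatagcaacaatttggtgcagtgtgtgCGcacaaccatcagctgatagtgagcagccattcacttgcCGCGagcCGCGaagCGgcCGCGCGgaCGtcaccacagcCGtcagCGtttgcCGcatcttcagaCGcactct
Herc3: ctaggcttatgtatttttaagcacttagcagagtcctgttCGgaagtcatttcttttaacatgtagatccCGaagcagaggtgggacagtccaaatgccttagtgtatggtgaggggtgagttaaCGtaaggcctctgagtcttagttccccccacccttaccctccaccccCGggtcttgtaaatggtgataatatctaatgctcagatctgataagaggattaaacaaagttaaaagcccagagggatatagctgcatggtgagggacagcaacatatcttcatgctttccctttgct
Nnat: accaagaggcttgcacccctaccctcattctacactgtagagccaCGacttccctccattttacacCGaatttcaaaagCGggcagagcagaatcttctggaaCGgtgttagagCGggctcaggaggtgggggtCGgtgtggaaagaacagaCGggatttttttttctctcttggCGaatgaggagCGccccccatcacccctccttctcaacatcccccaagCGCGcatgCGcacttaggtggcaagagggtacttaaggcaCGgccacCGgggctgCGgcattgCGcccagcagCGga
Mcts2: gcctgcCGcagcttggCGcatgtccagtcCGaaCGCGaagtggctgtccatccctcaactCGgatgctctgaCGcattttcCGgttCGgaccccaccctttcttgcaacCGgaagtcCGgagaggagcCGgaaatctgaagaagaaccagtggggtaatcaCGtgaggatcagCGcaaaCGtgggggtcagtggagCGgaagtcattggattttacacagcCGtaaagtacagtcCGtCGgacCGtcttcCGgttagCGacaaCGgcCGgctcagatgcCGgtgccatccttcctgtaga
The number of CG was 17 in the Nap1l5 window and 4 in that of Herc3, with 17 for Nnat and 25 for Mcts2. Of the 32851 promoter windows in the table, 31.4% held at least as many CG as that of Nap1l5 and 68.6% at least as many as that of Herc3. The letters TGCCGC, searched on both strands, which the zinc finger protein ZFP57 binds when methylated, occurred 2 times in the Nap1l5 window, 1 time each in those of Nnat and Mcts2 and 0 times in that of Herc3.

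Of the 40 listed genes, 33 had a promoter window, 50 windows in all. Their median was 14.5 CG, against 7 CG over all windows. TGCCGC was present in 11 of the 50 windows (22%), belonging to 10 genes, against 11.6% of all windows. Taking for each gene its window with the most CG, the median was 17 and the range ran from 0, for the noncoding RNA gene Rian, to 48, for Ppp1r9a. A match to these letters is a description of the sequence and was not set against any measurement of methylation.

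**Figure D1:**
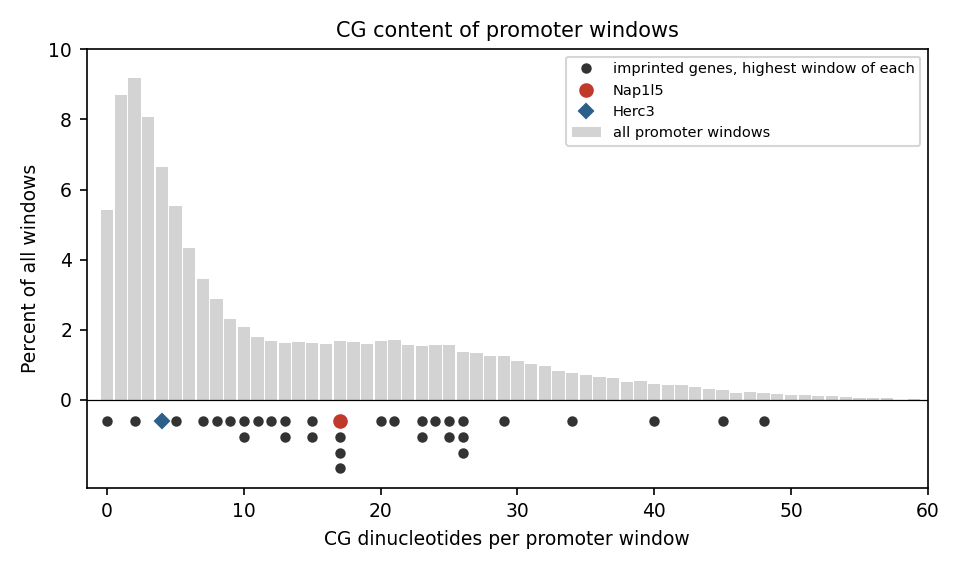
Number of CG dinucleotides per 300-base promoter window (horizontal axis) against the percent of windows with that number (vertical axis), with bars for all 32851 windows and points below the axis for each imprinted gene's window with the most CG. The imprinted genes ranged from 0 to 48 CG, where all windows ran from 0 to 67, with Nap1l5 at 17 and the host gene Herc3 at 4.

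The 20 arrays were alike, with Pearson correlations of log2 intensity between 0.947 and 0.994 over all probes. The deposited intensities of the sham set and of the TAC set had each been made to share a distribution of their own, so a difference between TAC and sham arrays and a difference between the sets cannot be told apart, while the genotype comparisons lie within a set. The intensities were therefore quantile normalized again over all 20 arrays. The 95th percentile of 1504 probes for olfactory and vomeronasal receptors, which served as background on each array, lay between 57.9 and 68.0 intensity units. It was above 62 units on 7 arrays (4 TAC DKO, 2 TAC CTL and 1 sham CTL), called broad-background arrays here. Sham CTL replicate 4 stood apart: 1595 of 14254 probes lay more than 1.5-fold from the other arrays of its group, against 85 to 375 on the other arrays. Cardiomyocyte markers were all above background (7 of 7), with a mean log2 intensity of 13.02 to 13.46 in TAC DKO, 13.1 to 13.5 in TAC CTL, 13.6 to 13.7 in sham DKO and 13.6 to 13.7 in sham CTL hearts.

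The deleted genes themselves could not be used to check the labels. The 3 probes of Dnmt3a, a de novo DNA methyltransferase, lay at background level. The first (ILMN_1224446) read 61.3, 42.9, 44.3 and 43.1 units in sham DKO hearts and 48.4, 46.1, 48.1 and 50.9 units in sham CTL hearts. The second (ILMN_1256464) read 48.4, 43.3, 45.3 and 45.3 units in sham DKO hearts and 48.0, 47.4, 44.4 and 42.9 units in sham CTL hearts. The third (ILMN_1259562) read 43.9, 40.8, 44.3 and 37.6 units in sham DKO hearts and 39.3, 42.0, 45.6 and 38.8 units in sham CTL hearts. After TAC, the 3 probes together ran from 37.2 to 51.6 units in DKO hearts and from 39.5 to 53.9 units in CTL hearts. The groups overlapped at every one of them, and the log2 differences between genotypes ran from -0.08 to 0.03. Dnmt3b (ILMN_1252310), a second methyltransferase known mainly from early development, read 104, 105, 106 and 91.3 units in sham DKO hearts and 110.4, 109.8, 111 and 119 units in sham CTL hearts. These arrays did not overlap, but the difference of -0.15 on the log2 scale did not pass the test (adjusted p = 0.924). TAC hearts ran from 98.3 through a median of 107 to 130.0 units in DKO hearts and from 94.5 through 103 to 115 units in CTL hearts, with a log2 difference of 0.06 (adjusted p = 0.841). The other Dnmt3b probe (ILMN_3114377) lay at 42.8 to 57.3 units on all arrays. Whether any of these probes lies in a deleted exon is not known, so their levels check nothing about the deletion.

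Nap1l5, a paternally expressed gene of the nucleosome assembly protein family, was the only imprinted gene called between genotypes. Its probe (ILMN_2608073) read 236, 173, 202 and 185 units in sham DKO hearts and 50.6, 56.2, 56.4 and 45.5 units in sham CTL hearts. After TAC it ran from 64.5 through a median of 88.5 to 107 units in DKO hearts, against 45.5 through 47.1 to 59.3 units in CTL hearts. Every DKO heart was above every CTL heart under both surgeries. In both CTL groups the probe did not rise above background.

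The means were 199 ± 27.2 units in sham DKO and 52.2 ± 5.18 units in sham CTL hearts (SD, n = 4 each), and 84.2 ± 16.0 units in TAC DKO and 49.1 ± 5.25 units in TAC CTL hearts (SD, n = 6 each). Nap1l5 rose in DKO hearts by 1.93 on the log2 scale after sham surgery (SE 0.13, 95% interval 1.66 to 2.20, adjusted p = 4.47e-09, limma). After TAC it rose by 0.76 (SE 0.11, 95% interval 0.54 to 0.98, adjusted p = 0.000444). Since the CTL level is only bounded by background, these are differences of at least 3.31-fold in sham hearts and at least 1.35-fold in TAC hearts. Exact two-sided permutation tests gave p = 0.0286 for 4 against 4 hearts and p = 0.00216 for 6 against 6, the smallest values these designs allow. Over all probes, 0.102% were called between genotypes in sham hearts and 0.144% after TAC.

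Within the TAC hearts, the 2 DKO and 4 CTL arrays without a broad background gave a Nap1l5 difference of 0.97 (adjusted p = 0.00298). The 4 DKO and 2 CTL broad-background arrays gave a difference of 0.71, which did not pass on its own (adjusted p = 0.207). Without sham CTL replicate 4 the sham difference was 1.85 (adjusted p = 2.7e-08). In bulk tissue, more Nap1l5 RNA per cardiomyocyte and more cells of a type that transcribes it cannot be told apart.

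The summed level of markers of the atrial chambers differed between genotypes in sham hearts, but of the 7 markers only Stard10 was called. Among them, 3 (Myl4, Dkk3 and Stard10) were above background in all 4 groups, and Myl7 and Bmp10 were at background level in every group. The mean log2 intensity over the list was 6.67 to 7.24 in sham DKO hearts, against 6.20 to 6.38 in sham CTL hearts, without overlap. It was 6.71 to 8.83 in TAC DKO hearts, against 6.37 to 7.09 in TAC CTL hearts, with overlap. Stard10 was higher in DKO hearts by 1.12 on the log2 scale after sham surgery and by 0.91 after TAC. Mybphl, an atrial myosin-binding protein, is itself on this list and enters its mean, and it is named here after its values were seen. Mybphl ran from 147 to 1152 units in sham DKO hearts, against 58.1 to 62.9 units in sham CTL hearts. After TAC it ran from 77.8 to 1207 units in DKO hearts, against 51.3 to 78.3 units in CTL hearts. Its differences of 2.86 (adjusted p = 0.0819) and 2.05 (adjusted p = 0.1) did not pass. Smooth muscle and pericyte markers (6 of 8 above background) ran from 7.53 to 7.72 in sham DKO and from 7.74 to 7.85 in sham CTL hearts, again without overlap. The part of either list in the Nap1l5 difference was not tested.

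**Figure D2:**
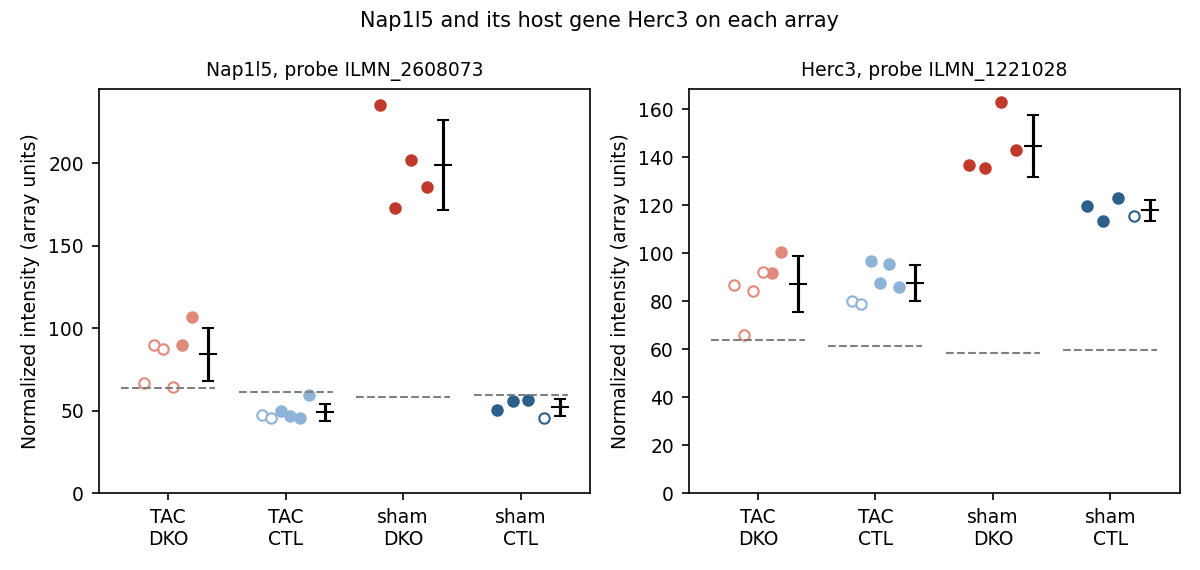
Intensity units per array (vertical axis, linear) for the Nap1l5 probe and for the brighter Herc3 probe in the 4 groups, with filled points for the other arrays, open points for the 7 broad-background arrays, a black bar for the mean ± SD and a dashed line for the mean background of the group. Nap1l5 lies at 173 to 236 units in sham DKO hearts and at 64.5 to 107 units in TAC DKO hearts, above all CTL hearts of the same surgery, while Herc3 shows no such gap after TAC.

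Within DKO hearts, Nap1l5 fell by 1.25 after TAC relative to sham surgery (SE 0.12, 95% interval -1.5 to -1.01, adjusted p = 3.59e-08), and no TAC DKO heart reached the lowest sham DKO heart. CTL hearts were at background level under both surgeries, so no fold is given for them. In the test of the interaction of genotype and surgery, Nap1l5 was the only probe called (0.00221% of all probes), with a measured value of -1.17 on the log2 scale (SE 0.17, adjusted p = 0.0222). Because a fall of the CTL level below background would leave no signal, this value follows the DKO levels, and it does not measure how far the genotype difference itself changed. The interaction also sets TAC arrays against sham arrays, so surgery and array set cannot be told apart in it. Leaving out a single array ended the interaction call for 5 of the 20 arrays, replicates 1 and 3 of the sham DKO group, replicate 3 of the TAC CTL group and replicates 1 and 4 of the sham CTL group. Its adjusted p was then up to 0.0983 and its value stayed between -1.24 and -1.08 whichever array was left out. Without the 7 broad-background arrays it was -0.90 (adjusted p = 0.325).

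Herc3, the host gene of Nap1l5 and a member of the HECT-domain ubiquitin ligases, is not on the list of imprinted genes and serves as its neighbour. Its brighter probe (ILMN_1221028) read 137, 136, 163 and 143 units in sham DKO hearts and 119.9, 113, 123 and 115 units in sham CTL hearts. These arrays did not overlap, with a log2 difference of 0.29 (SE 0.10) that did not pass over all probes (adjusted p = 0.695). After TAC it ran from 66.1 through 89.3 to 101 units in DKO hearts and from 78.8 through 87.0 to 97.0 units in CTL hearts, a difference of -0.02 (adjusted p = 0.972). TAC hearts were below sham hearts in both genotypes, by a called -0.74 in DKO (adjusted p = 1.19e-06) and by -0.43 in CTL hearts, where the change passed the adjusted p (0.000948) but stayed under the 1.5-fold limit. The second probe (ILMN_2635218) read 66.8, 57.7, 69.2 and 70.8 units in sham DKO and 73.6, 67.2, 73.9 and 54.3 units in sham CTL hearts. After TAC it ran from 52.4 through 62.6 to 67.5 units in DKO and from 54.7 through 63.5 to 68.5 units in CTL hearts, and it was called in no comparison.

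The other host genes were not called between genotypes either. Blcap, host of Nnat, averaged 474 ± 8.61 units in sham DKO and 513 ± 49.0 units in sham CTL hearts (SD, n = 4 each). Commd1, host of Zrsr1 and a regulator of copper transport, had 2 probes. ILMN_1215639 was called lower after TAC in both genotypes, by -1.70 in DKO (adjusted p = 3.3e-07) and by -1.20 in CTL hearts (adjusted p = 4.78e-05), whereas ILMN_1231658 averaged 1464 units in TAC DKO and 1484 units in sham DKO hearts.

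In sham hearts 1 of the 97 imprinted probes was called higher in DKO and 0 lower, against 0.0883% of all probes called higher and 0.0133% called lower. After TAC the counts were 1 higher and 0 lower, against 0.128% and 0.0155% of all probes. The called probe was that of Nap1l5 each time. At an unadjusted p under 0.05, 7 imprinted probes (7.22%) lay in sham hearts and 8 (8.25%) in TAC hearts, against 5.55% and 8.99% of all probes. Every DKO array lay above every CTL array of the same surgery for 3 imprinted probes in sham hearts (Nap1l5, Grb10 and Impact ILMN_2517290) and below for 2 (Cdkn1c and Peg3 ILMN_1233819), where 1.81% and 2.08% of all probes did so. After TAC this held for 1 (Nap1l5) above and 0 below, where it held for 0.338% and 0.216% of all probes. For the interaction 5 probes (5.15%) had an unadjusted p under 0.05, against 4.71% of all probes. The median log2 difference over the 97 probes was 0.0014 in sham and 0.014 in TAC hearts, against -0.0030 and -0.00058 over all probes. The 41 probes of paternally expressed genes had medians of -0.0099 and 0.028, and the 20 probes of maternally expressed genes 0.0036 and -0.0034.

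Many imprinted genes gave no level to compare. Of the 97 probes, 61 were at background in all 4 groups and 21 were above it in all 4 groups. Counting for each gene the probe above background in the most groups, 15 of the 37 genes lay at background throughout. They were Usp29, Zim1, Peg10, Sgce, Phlda2, Slc22a18, Ascl2, Dlk1, Meg3, Rian, Plagl1, Peg12, Nnat, Mcts2 and Rasgrf1. A fall in these genes, or a change that stayed below background, was not detectable at this signal. In 1 group alone a mean above background was found for Asb4 and Magel2 (sham DKO), Rtl1 (TAC DKO), and Dio3 and Kcnk9 (TAC CTL), and none of these was called between genotypes. Besides Nap1l5, Mkrn3 and Slc38a4 were above background in 2 groups, both in sham hearts. The 14 genes above it in every group were Peg3, Ppp1r9a, Mest, Igf2, Igf2r, Cdkn1c, Tssc4, Grb10, Ndn, Ube3a, Impact, Gnas, H13 and Inpp5f. Levels of different genes come from different probes and are not to be set against each other.

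**Figure D3:**
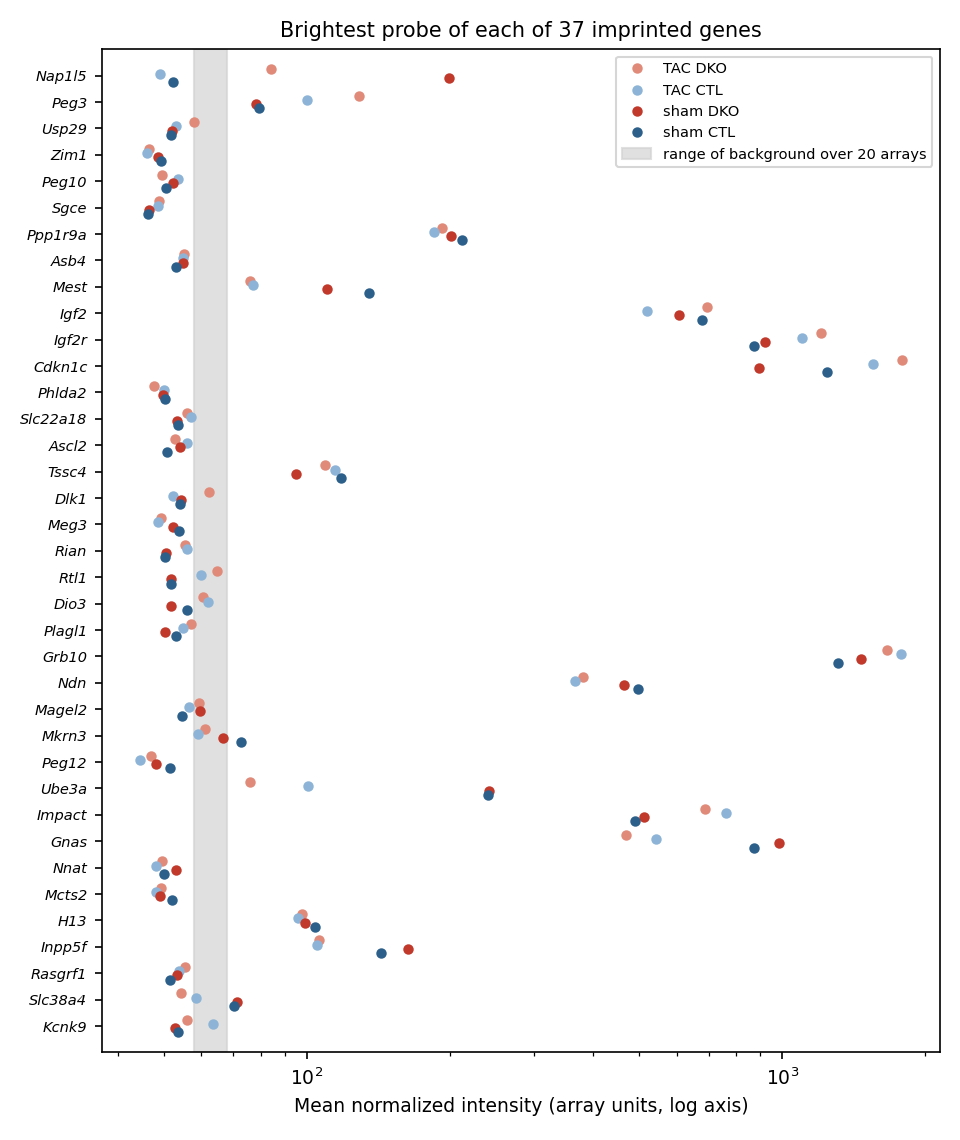
Group mean intensity (horizontal axis, log scale) of the brightest probe of each of the 37 imprinted genes, arranged by chromosomal domain, in TAC DKO, TAC CTL, sham DKO and sham CTL hearts, with a grey band for the range of background over the 20 arrays (57.9 to 68.0 units). Nap1l5 lies above the band in both DKO groups (84.2 and 199 units) and below it in both CTL groups (49.1 and 52.2 units).

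Apart from Nap1l5, the log2 differences between genotypes ran from -0.44 to 0.22 in sham hearts and from -0.38 to 0.39 after TAC, and none of these 96 probes passed the adjusted test (lowest adjusted p 0.82 and 0.12). All 4 extremes belonged to probes above background. Growth regulators made up part of them. Cdkn1c, the cyclin-dependent kinase inhibitor p57 and a brake on fetal growth, read 797, 952, 917 and 908 units in sham DKO hearts and 1003, 1023, 1159 and 1785 units in sham CTL hearts. The arrays did not overlap, and the log2 difference was -0.44 (adjusted p = 0.861, exact permutation p = 0.0286). The highest value was that of sham CTL replicate 4. After TAC, Cdkn1c ran from 1446 through 1617 to 2319 units in DKO and from 989.7 through 1604 to 1934 units in CTL hearts, a difference of 0.20 (adjusted p = 0.747).

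Igf2, the fetal growth factor expressed from the paternal copy, read 480.2, 584, 995 and 366 units in sham DKO and 566, 580.2, 558 and 1003 units in sham CTL hearts. TAC hearts ran from 454 through 716 to 1026 units in DKO and from 360.1 through 512 to 697 units in CTL hearts. The groups overlapped under both surgeries, with differences of -0.21 (adjusted p = 0.99) and 0.39 (adjusted p = 0.626). Igf2r, the receptor that clears IGF2 and is expressed from the maternal copy, averaged 920.1 units in sham DKO and 871 units in sham CTL hearts at its brighter probe (difference 0.09). Grb10, an adaptor that dampens insulin receptor signalling, read 1425, 1408, 1544 and 1471 units in sham DKO and 1398, 1377, 1326 and 1147 units in sham CTL hearts. All 4 DKO hearts were above all 4 CTL hearts, but the difference of 0.16 did not pass (adjusted p = 0.964). After TAC its range was 1228 to 2103 units in DKO and 1603 to 2157 units in CTL hearts.

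After TAC the lowest unadjusted p values beside Nap1l5 were those of Dlk1 and Ube3a. Ube3a, an E3 ubiquitin ligase that is imprinted in neurons, read 219, 237, 225 and 288 units in sham DKO hearts and 248, 219, 254 and 240.0 units in sham CTL hearts at its brightest probe (ILMN_3155274), a difference of 0.00. After TAC it ran from 64.8 through 74.3 to 89.1 units in DKO hearts, against 67.0 through 105 to 125 units in CTL hearts. The groups overlapped, and the log2 difference was -0.38 (SE 0.12, unadjusted p = 0.00399, adjusted p = 0.286). It was -0.08 within the broad-background TAC arrays and -0.38 within the other TAC arrays. Dlk1, a paternally expressed Delta-like ligand, stayed at background level as a group mean in all 4 groups. It read 53.8, 53.9, 56.4 and 52.8 units in sham DKO and 53.5, 56.3, 53.7 and 52.2 units in sham CTL hearts (ILMN_2771738). After TAC it ran from 52.7 through 62.5 to 71.4 units in DKO hearts and from 46.6 through 52.1 to 58.1 units in CTL hearts, with a log2 difference of 0.24 (SE 0.06, unadjusted p = 0.000628, adjusted p = 0.12).

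**Figure D4:**
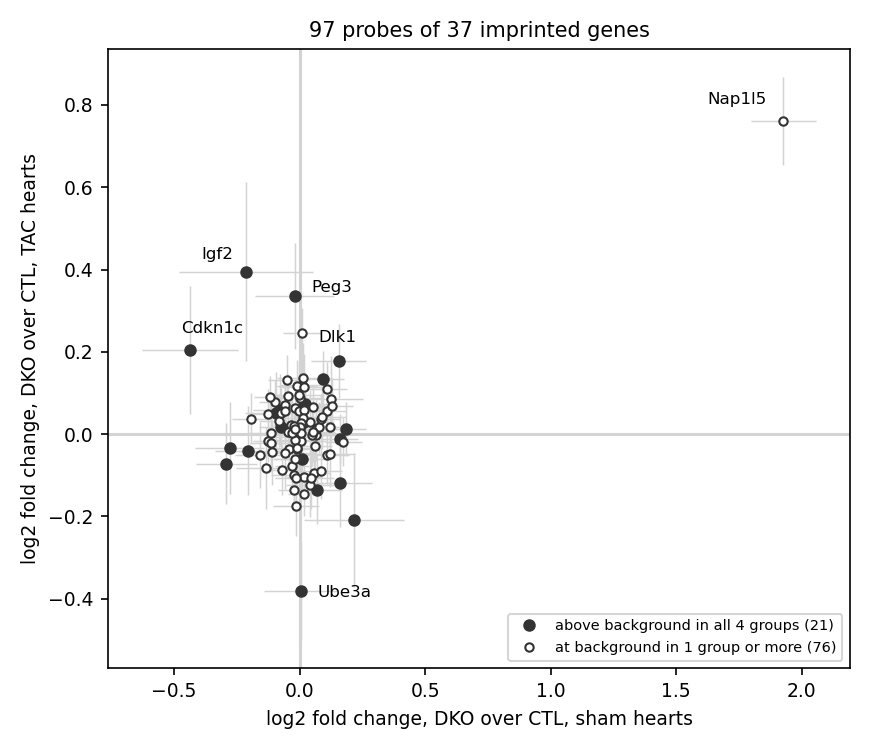
Log2 difference of DKO against CTL for the 97 imprinted probes in sham hearts (horizontal axis, log2 units) and after TAC (vertical axis, log2 units), with error bars for the standard error, filled points for the 21 probes above background in all groups and open points for the 76 probes at background in at least 1 group. Nap1l5 stands at 1.93 in sham and 0.76 in TAC hearts, and the other 96 probes lie between -0.44 and 0.39.

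More imprinted probes were called between TAC and sham hearts than between genotypes. In DKO hearts 7 of 97 were called, 2 higher and 5 lower, against 6.74% of all probes (2.46% higher and 4.27% lower). In CTL hearts 5 were called, 1 higher and 4 lower, against 5.17% of all probes (1.76% higher and 3.4% lower). At an unadjusted p under 0.05 there were 32 (33.0%) in DKO and 28 (28.9%) in CTL hearts, against 37.9% and 32.7% of all probes. Arrays of TAC and sham hearts did not overlap for 8 imprinted probes higher and 11 lower in DKO hearts, where 11.1% and 9.38% of all probes did so, and for 6 higher and 10 lower in CTL hearts, where it was 8.37% and 7.78%. By direction the count of all called probes was 36.6% higher in DKO hearts (40.4% from the deposited values, 4.67% with each array centred on its median) and 34.1% higher in CTL hearts (32.3% and 4.61%), so the balance of rises and falls depended on the scaling. With median centring the imprinted probes were 0 higher and 9 lower in DKO, and 0 higher and 10 lower in CTL hearts. Deposited values gave 2 higher and 5 lower in DKO, and 0 higher and 5 lower in CTL hearts. All members called, apart from Nap1l5, were among the 21 probes above background in every group. Of these 21, 2 rose and 4 fell in DKO hearts, and 1 rose and 4 fell in CTL hearts. Of all 14254 probes above background in every group, 1055 rose and 1600 fell in DKO hearts, and 747 rose and 1289 fell in CTL hearts. The median log2 change over the 97 probes was -0.020 in DKO and -0.024 in CTL hearts, against 0.016 and 0.013 over all probes.

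Among the imprinted probes the largest fall was that of Ube3a. Its probe ILMN_3155274, with the values given above, was 76.1 ± 9.61 units in TAC DKO hearts (SD, n = 6) and 242 ± 31.4 units in sham DKO hearts (SD, n = 4). In CTL hearts it was 101 ± 21.9 units after TAC (SD, n = 6) and 240.4 ± 15.5 units after sham surgery (SD, n = 4). It fell by 1.67 in DKO (SE 0.13, adjusted p = 2.79e-09) and by 1.29 in CTL hearts (SE 0.13, adjusted p = 1.86e-07), with no overlap in either. The other 6 probes of Ube3a were not called. Of these, the probe above background in all groups, ILMN_2506499, averaged 77.0 units in TAC DKO and 69.4 units in sham DKO hearts, and 67.8 units in TAC CTL and 62.6 units in sham CTL hearts.

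Gnas, which encodes the stimulatory G protein alpha subunit and several imprinted transcripts, was called lower at 2 of its 10 probes in both genotypes. ILMN_2632206 ran from 372 through 418 to 614 units in TAC DKO hearts, against 1031, 958, 993 and 958 units in sham DKO hearts. In CTL hearts it ran from 385 through 592 to 669 units after TAC, against 1028, 947, 987 and 534 units after sham surgery. DKO groups were apart, whereas CTL groups overlapped through sham CTL replicate 4. The log2 change was -1.10 in DKO (adjusted p = 6.01e-05) and -0.68 in CTL hearts (SE 0.18, adjusted p = 0.0086), and the CTL change was -0.90 without that array. It fell under the fold limit, at -0.58, without sham CTL replicate 1 or without TAC CTL replicate 1.

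The other called Gnas probe, ILMN_1223437, ran from 209 through 232 to 279 units in TAC DKO hearts, against 375, 381, 393 and 399 units in sham DKO hearts. In CTL hearts it ran from 207 through 247 to 266 units after TAC, against 374, 427, 368 and 673 units after sham surgery. Neither pair of groups overlapped, and the changes were -0.72 in DKO (adjusted p = 7.5e-05) and -0.89 in CTL hearts (adjusted p = 8.74e-06). Sham CTL replicate 4 was the highest array here and the lowest of its group at ILMN_2632206. A further Gnas probe, ILMN_1252926, was above background in sham hearts only and was not called. It averaged 58.5 units in TAC DKO and 87.7 units in sham DKO hearts, and 55.5 units in TAC CTL and 79.3 units in sham CTL hearts. With the TAC level at background, its fall can be larger than measured.

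Mest, a paternally expressed gene of the alpha/beta hydrolase fold that is known for its high expression in fetal mesoderm, fell in CTL hearts. Its brightest probe (ILMN_2846904) ran from 67.1 through 76.8 to 91.9 units in TAC CTL hearts, against 115, 176, 120.4 and 129.5 units in sham CTL hearts. The highest of these was sham CTL replicate 2, the heart with raised skeletal muscle markers described below. The change was -0.80 (SE 0.13, adjusted p = 4.38e-05), and it lay between -0.86 and -0.66 whichever array was left out. In DKO hearts the probe ran from 58.4 through 80.3 to 90.2 units after TAC, against 114, 97.0, 117 and 114 units after sham surgery, and the change of -0.55 (adjusted p = 0.0016) stayed under the fold limit. No arrays overlapped in either genotype, and the interaction of 0.25 did not pass (adjusted p = 0.94).

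Inpp5f, a phosphoinositide phosphatase gene with an imprinted transcript, fell in DKO hearts at 1 of its 4 probes. ILMN_2785512 ran from 99.4 through 105 to 117 units in TAC DKO hearts, against 145, 152, 181 and 175 units in sham DKO hearts, a change of -0.62 (SE 0.07, adjusted p = 8.74e-07). The size came under the fold limit without sham DKO replicate 3 (-0.57) or without sham DKO replicate 4 (-0.58), and was -0.53 without the 7 broad-background arrays. The other 3 probes of Inpp5f were at background level in all groups, and 1 of them went the other way: ILMN_2560153 ran from 57.5 to 67.7 units in TAC DKO hearts, against 51.6 to 54.3 units in sham DKO hearts, without overlap (0.24, adjusted p = 0.00442, under the fold limit). At ILMN_2785512 in CTL hearts the range was from 93.6 through 105 to 114 units after TAC, against 155, 139, 128 and 152 units after sham surgery, and the change was -0.45 (adjusted p = 7.62e-05). TAC and sham hearts did not overlap at this probe in either genotype.

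Among the genes that rose, Impact, the paternally expressed inhibitor of the amino acid sensor GCN2, was called in CTL hearts. ILMN_2760977 ran from 635 through 767 to 849 units in TAC CTL hearts, against 546, 547, 487 and 384 units in sham CTL hearts, a rise of 0.64 (SE 0.09, adjusted p = 2e-05). In DKO hearts it ran from 651 through 687 to 729 units after TAC, against 575, 504, 498 and 468 units after sham surgery, a change of 0.43 (adjusted p = 0.00106) under the fold limit. TAC hearts were above sham hearts without overlap in both. The CTL change depended on the scaling, at 0.46 from the deposited values and 0.15 with median centring (adjusted p = 0.245), and it was 0.52 without sham CTL replicate 4.

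Cdkn1c was called higher after TAC in DKO hearts, with all 6 TAC DKO values above the 4 sham DKO values given above. The means were 1784 ± 395 units in TAC DKO (SD, n = 6) and 894 ± 67.2 units in sham DKO hearts (SD, n = 4), a rise of 0.97 (SE 0.17, adjusted p = 0.000143). With median centring it was 0.49 (adjusted p = 0.0338). In CTL hearts the means were 1552 ± 331 units after TAC (SD, n = 6) and 1243 ± 368 units after sham surgery (SD, n = 4), and the groups overlapped (0.33, adjusted p = 0.192). The interaction of 0.64 did not pass (unadjusted p = 0.0156, adjusted p = 0.939), so the DKO and CTL responses were not shown to differ.

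Peg3, a paternally expressed zinc finger protein gene, rose after TAC in DKO hearts at its brightest probe. ILMN_1245246 read 161, 151, 159.7, 113, 97.2 and 90.9 units in TAC DKO hearts and 85.6, 79.2, 79.8 and 67.3 units in sham DKO hearts. The 4 higher TAC DKO values were those of the broad-background arrays. The rise was 0.69 (SE 0.14, adjusted p = 0.000793), and 0.28 (adjusted p = 0.0546) without the 7 broad-background arrays, with 0.43 by median centring. A block for the broad background was also fitted among the 30 alternatives. Over these the rise ran from 0.28 to 0.82, and 3 of them lost the call. How much of the rise goes with the broad background was not tested further. In CTL hearts Peg3 ran from 86.8 through 97.1 to 127 units after TAC, against 81.6, 71.8, 70.3 and 93.3 units after sham surgery (0.33, adjusted p = 0.106).

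**Figure D5:**
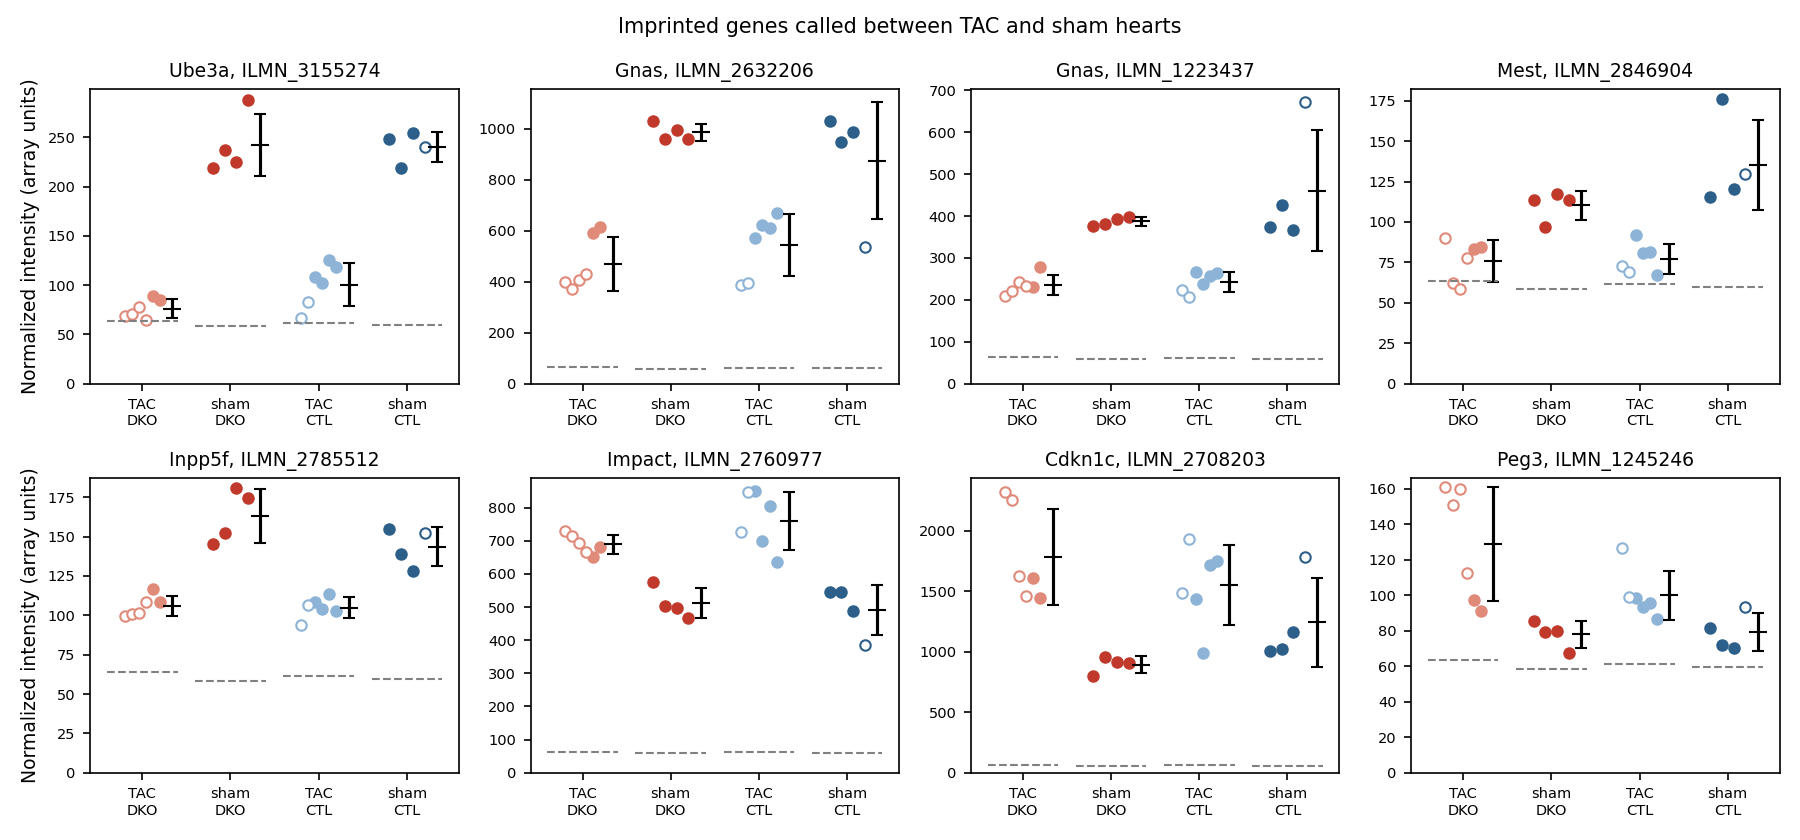
Intensity units per array (vertical axes, linear) for the imprinted probes, other than that of Nap1l5, called between TAC and sham hearts, with filled points for the other arrays, open points for the 7 broad-background arrays, a black bar for the mean ± SD and a dashed line for the mean background of the group. Ube3a, both Gnas probes, Mest and Inpp5f lie lower after TAC, Impact, Cdkn1c and Peg3 higher, and the single sham CTL array that stands off in both Gnas panels is replicate 4.

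The remaining genes with a level had measured changes under the 1.5-fold limit after TAC. Igf2r averaged 1206 units in TAC DKO and 920.1 units in sham DKO hearts at its brighter probe, a change of 0.39 (adjusted p = 0.000384), and 0.35 in CTL hearts (adjusted p = 0.0015). Grb10 changed by 0.43 in CTL (adjusted p = 0.00977) and by 0.16 in DKO hearts (adjusted p = 0.36). Ndn, a growth-restraining MAGE family gene of the Prader-Willi region, changed by -0.29 in DKO (adjusted p = 0.06) and by -0.43 in CTL hearts (adjusted p = 0.0071). Slc38a4, an amino acid transporter gene, changed by -0.38 in DKO (adjusted p = 7.02e-05) and by -0.26 in CTL hearts (adjusted p = 0.00417), with the TAC level at background. Mkrn3, a makorin zinc finger gene, changed by -0.30 in CTL hearts (adjusted p = 0.00172), again with the TAC level at background. For Slc38a4 and Mkrn3 the fall can therefore be larger than measured, and it is not shown to stay under the limit. Tssc4, Ppp1r9a (a neuronal scaffold for protein phosphatase) and H13 (signal peptide peptidase, host of Mcts2) were called in no comparison, with Ppp1r9a at 193 units in TAC DKO, 185 units in TAC CTL, 201 units in sham DKO and 212 units in sham CTL hearts, and H13 (ILMN_1212794) between 95.9 and 104 units in all group means.

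Markers of cell types also moved with surgery. The mean over the cardiomyocyte markers was lower in TAC than in sham hearts of both genotypes, as given above. Single markers went both ways in CTL hearts. Mybpc3 was called higher there by 0.77 (adjusted p = 4.46e-08, limma), while Myh6, Tnni3, Actc1, Ryr2 and Atp2a2 were called lower, with changes from -1.37 to -0.75. Red blood cell markers (4 of 4 above background) were 11.1 to 11.7 in TAC DKO and 10.3 to 11.1 in sham DKO hearts, and 10.95 to 11.43 in TAC CTL and 9.85 to 10.7 in sham CTL hearts, on the log2 scale. Smooth muscle and pericyte markers were 7.89 to 8.34 in TAC DKO and 7.53 to 7.72 in sham DKO hearts, and 7.92 to 8.29 in TAC CTL and 7.74 to 7.85 in sham CTL hearts. Neither of these lists overlapped between surgeries. Leukocyte markers (4 of 7 above background) were 6.59 to 6.83 in TAC DKO and 7.09 to 7.19 in sham DKO hearts, without overlap, and 6.60 to 6.95 in TAC CTL and 6.83 to 7.19 in sham CTL hearts, with overlap. Of the atrial markers, Dkk3 was called higher after TAC in both genotypes and Myl4 in DKO hearts. Ranges of the endothelial, fibroblast, adipocyte and atrial lists overlapped between surgeries in both genotypes. Skeletal muscle markers (2 of 8 above background) reached 8.63 in 1 heart, sham CTL replicate 2, and were 5.89 to 6.24 in all other hearts. Genes with at least 2 called probes sometimes had them in opposite directions after TAC, 29 of 250 genes in DKO and 18 of 185 in CTL hearts, against 0 of 5 between genotypes in TAC and 0 of 3 in sham hearts. The part of composition in the changes after TAC was not tested.

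Related genes were read beside the listed ones. Of 69 probes for 38 further imprinted genes, 0 were called between genotypes in sham hearts and 0 after TAC by limma, against 0.102% and 0.144% of all probes. At an unadjusted p under 0.05 there were 6 (8.70%) each time, against 5.55% and 8.99% of all probes. After TAC 2 of them rose and 3 fell in DKO hearts, against 2.46% and 4.27% of all probes, where Pon2, a paraoxonase gene, changed by 0.61 and Qpct, which encodes glutaminyl cyclase, by 0.67, while the 3 probes of Ddc, which encodes aromatic amino acid decarboxylase, changed by -1.11 to -0.61. In CTL hearts 0 rose and 1 fell, a Ddc probe at -0.78, against 1.76% and 3.4% of all probes. Snurf, which shares its transcript with Snrpn and was chosen after its values were seen, had 4 probes and none was called between genotypes. Its brightest probe (ILMN_1247894) averaged 3010.3 units in TAC DKO, 3059.8 in TAC CTL, 2721 in sham DKO and 3004 in sham CTL hearts.

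Among the 10 probes for 6 genes of the nucleosome assembly protein family, only that of Nap1l5 was called in any comparison. Nap1l1, a histone chaperone, averaged 816 ± 62.3 units in sham DKO and 669 ± 123 units in sham CTL hearts (SD, n = 4 each) at ILMN_1241857, a difference of 0.30 (adjusted p = 0.754). Nap1l4, a ubiquitous relative that itself lies in an imprinted cluster, averaged 3906 ± 137 units in sham DKO and 3721 ± 171 units in sham CTL hearts (SD, n = 4 each), a difference of 0.07 (adjusted p = 0.971). Of 28 probes for 14 genes that set or keep imprints, 0 were called between genotypes in sham hearts and 0 after TAC by limma, against the same shares of all probes, with 2 (7.14%) and 1 (3.57%) at an unadjusted p under 0.05, against 5.55% and 8.99% of all probes. Between TAC and sham hearts 1 rose and 1 fell in DKO hearts, against 2.46% and 4.27% of all probes. For CTL hearts the counts were 0 and 1, against 1.76% and 3.4% of all probes. After TAC, Zfp445, a zinc finger protein that guards imprints, fell by 0.78 in both genotypes, and Tet1, which oxidizes methylated cytosine, rose by 0.82 in DKO hearts (adjusted p = 3.91e-06).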

How the data were processed

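RNA from ventricles was hybridised to Illumina bead chips, 1 array per mouse, and groups were taken from the sample labels. The authors processed the arrays in GenomeStudio 2010.3. The deposited values are linear intensity units for 45281 probes, and no source used here gives the background correction or the normalization. Sorted deposited values were equal within a 0.2% tolerance for at least 99.9% of probes between any of the 12 TAC arrays and 97.6% between any of the 8 sham arrays, but for 0.413% between a sham and a TAC array, so each set had been quantile normalized apart (the medians differed by 0.30 log2). The number of arrays limits the precision.

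Updated gene symbols were used for 34807 probes. A single gene was named for 34885 probes, several for 18 and none for 10378. Promoter windows came from RefSeq on GRCm38.p6. Probe positions were not used, since their build is unknown.

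Intensities were log2 transformed and quantile normalized over the 20 arrays. Group means were estimated for every probe in limma 3.58.1 under R 4.3.3, after a test on simulated data, and the degrees of freedom were 16 residual and 6.64 prior. Calls required a Benjamini-Hochberg adjusted p below 0.05 over all probes together with a change of more than 1.5-fold. Means and SD are of normalized linear intensities. Single values were tested with exact two-sided permutation tests. A group whose mean log2 intensity was not above the mean background percentile of its arrays was at background level, and a fold against it is a bound. Tests compared arrays at 1 probe at a time, and the brightest probe of a gene only decided which probe was shown. By rule, values are given by array for Nap1l5, for each imprinted probe called in any comparison, for Herc3, Dnmt3a and Dnmt3b, and for those at an unadjusted p under 0.01 between genotypes, with groups of 6 as lowest, median and highest. Of genes on the other lists, apart from the cell type markers, those called in a comparison of genotype or surgery are named. Of the called cell type markers only some are named. The genes, the lists and the tests were chosen with earlier results of these data known. Alternatives covered scaling, filtering, thresholds, blocking and leaving out arrays.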

Additional observations from a re-analysis of the deposited data

Results flagged for a closer look

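An array lay far from the others of its group in 8 of 96 groups of arrays examined, over 24 probes. Chance alone gives about 1 such group in 20. Of the 8, 4 were on sham CTL replicate 4. At Gnas (ILMN_2632206) it read 534 units, against 947 to 1028 on the other sham CTL arrays. At Igf2 it read 1003 units, against 558 to 580.2. At Ube3a (ILMN_2506499) it read 49.98 units, against 65.1 to 68.5, and at H13 (ILMN_2700292) 72.5 units, against 92.7 to 95.5.

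The other 4 were on different arrays. Mest (ILMN_2846904) read 97.0 units on sham DKO replicate 2, against 114 to 117 on the other sham DKO arrays. H13 (ILMN_1238747) read 72.9 units on sham DKO replicate 4, against 84.6 to 86.9. Peg3 (ILMN_1245246) read 127 units on TAC CTL replicate 1, against 86.8 to 98.8 on the other TAC CTL arrays. Nap1l5 read 59.3 units on TAC CTL replicate 6, against 45.5 to 50.1, all at background level.

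The measured genotype difference of Nap1l5 differed between surgeries, with an interaction of -1.17 on the log2 scale (adjusted p = 0.0222, limma). Both CTL groups were at background level, where a fall would leave no signal, so this value follows the DKO levels and is not a measure of the change in the genotype difference itself. It also sets TAC arrays against sham arrays, so surgery and array set cannot be told apart in it.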

How the results depend on the processing

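Nap1l5 was the called imprinted probe between genotypes in sham hearts under all 30 alternatives, with log2 differences from 1.65 to 2.20. After TAC it was called in 31 of 32, from 0.61 to 0.97. The exception was the broad-background TAC arrays alone, where 0 imprinted probes were called (0.71, adjusted p = 0.207) and where fewer arrays entered the fit. The measured interaction ranged from -1.53 to -0.90. Counts of called probes with 1 array left out ranged from 0 to 1 for the interaction, from 4 to 6 for TAC in CTL hearts and from 6 to 8 for TAC in DKO hearts, and were 1 in each genotype comparison. Without the 7 broad-background arrays the interaction count was 0, with fewer arrays in the fit. For TAC in CTL hearts median centring gave 10 called imprinted probes and an adjusted p with no fold threshold 22, against 5. For TAC in DKO hearts no fold threshold gave 25, against 7. Median log2 change over all probes was 0.28 in CTL and 0.29 in DKO hearts with the deposited values. The changes and calls given from the deposited values include this shift, which was not subtracted. Settings that split or blocked arrays by background were chosen after seeing the data. The labels do not say that replicate numbers pair the mice, and the main fit did not pair them. Correlations of same-numbered arrays between genotypes ran from -0.19 to 0.38 in TAC and from 0.01 to 0.22 in sham hearts. A replicate block gave 1, 1, 5 and 8 called probes and an interaction adjusted p of 0.00255 (limma). Whether same-numbered arrays share a factor was not tested further. Of 607 values for single probes under alternatives, 578 kept their direction and their side of the threshold, 22 kept direction but lost the call, and 7 changed sign. These 7 were all of the uncalled Herc3 difference after TAC (-0.02), which was 0.0432 with a background block, 0.0422 in the broad-background TAC arrays alone and 0.0702 in the other TAC arrays alone or without the 7 broad-background arrays, and ran from -0.0607 to 0.0614 with 1 array left out (above 0 without TAC CTL replicate 3, TAC CTL replicate 5 or TAC DKO replicate 2). Genes at background limit what can be detected, since a change below it leaves no signal.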
